A study of Mus musculus with 18 samples.

Results

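Superoxide and peroxide detoxification enzymes were followed across mouse hepatocytes given 1 of 3 viruses and 1 of 2 treatments. The list held 10 genes, chosen by name but with earlier results of these data known. It took in the superoxide dismutases Sod1 and Sod2, catalase (Cat), the glutathione peroxidases Gpx1 and Gpx4, and the peroxiredoxins Prdx1, Prdx3 and Prdx5. The mitochondrial thioredoxin Txn2 and its reductase Txnrd2 completed the list. A value was available for 6 of the 10, among 15491 genes measured in all. These 6 were Sod2, Prdx3, Txn2 and Txnrd2, which act in mitochondria, Sod1, which acts mainly in the cytosol, and Cat, which acts in peroxisomes. Prdx1 had 5 probe sets, each naming a second gene as well, so it has no value here. Gpx1, Gpx4 and Prdx5 were not analysed here. The comparison of mitochondrial with cytosolic enzymes therefore sets 4 mitochondrial genes beside Sod1 and Cat. Each gene is represented by its brightest probe set, a group of short probes for one transcript, by mean over the arrays. The value table was held in part, so brightest means brightest among the probe sets held here, and a brighter one of Sod1 or another member may lie outside it.

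The cells were primary hepatocytes, the parenchymal cells of the liver, taken from C57BL/6J mice and cultured. Every culture was infected for 48 hours with an adenovirus, and all viruses, the control included, also made green fluorescent protein (GFP) from a separate reading frame. The vector group carried no PGC-1alpha. The PGC-1a1 and PGC-1a4 groups expressed these isoforms of the transcriptional coactivator PGC-1alpha from the virus. Cells then received TNFalpha, an inflammatory cytokine, at 2 ng/mL for 2 hours, or PBS as vehicle. Each of the 6 groups had 3 Affymetrix arrays, so there were 18 arrays. The labels do not say how many animals or cultures these came from, so the p-values measure the spread between arrays, which may be technical.

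Respiration in mitochondria leaks electrons to oxygen and makes superoxide. Superoxide dismutases turn superoxide into hydrogen peroxide, Sod2 in the mitochondrial matrix and Sod1 in the cytosol. Peroxide is then reduced to water by peroxiredoxins, of which Prdx3 is the matrix form recharged by Txn2 and Txnrd2, or by catalase, which is abundant in the peroxisomes of hepatocytes. PGC-1alpha is known as a coactivator of mitochondrial biogenesis and of antioxidant enzymes, and Sod2 is a known target of the NF-kappaB pathway that TNFalpha activates.

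Values are log2 levels made with RMA, and a difference is a log2 difference ± SE from limma with n = 3 arrays per group. A gene was called where the Benjamini-Hochberg adjusted p over all 15491 genes was under 0.05. Arrays of one group correlated at 0.990 to 0.996 across probe sets, and a PBS with a TNF array at 0.910 to 0.946. The median of an array was 7.24 to 7.32 with PBS and 7.04 to 7.10 with TNF. Since it is not known whether the PBS and TNF arrays were normalized together, comparisons between them are also given under other scalings. Every share of all genes is for the values as deposited. Counts under another scaling are given without such a share, so they cannot be set against a shift of all genes. The transcript of Ppargc1a, the gene of PGC-1alpha, was not called higher with either virus: on PBS arrays it read 7.21 ± 0.17 (SD) in vector cells, 6.93 ± 0.07 in PGC-1a1 cells and 7.11 ± 0.24 in PGC-1a4 cells. Under TNF it read 6.81 ± 0.32, 6.52 ± 0.13 and 6.55 ± 0.24 in the same order. No source used here says whether its probes lie inside the virus's copy, so the groups are named by their labels without a check from this gene. Of 9 hepatocyte markers 3 were measured: Alb (albumin) read 15.52 to 15.70 on all arrays, close to the top of the scale at 15.99, and Apoa1 (an apolipoprotein) and Hnf4a (a transcription factor) differed between groups, as given with the other markers. In RNA from whole cultures, fewer cells of a type and less RNA per cell cannot be told apart.

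In cells given PBS, 3 of the 4 mitochondrial enzymes were higher with PGC-1a1 than in vector cells: Sod2, Prdx3 and Txn2. Sod2, the matrix superoxide dismutase, read 11.10, 11.81 and 11.32 on the vector arrays and 12.53, 12.40 and 12.65 with PGC-1a1. All 3 PGC-1a1 arrays lay above all vector arrays, and vector replicate 2 was the nearest to them. The rise was 2.17-fold (log2 1.11 ± 0.13, limma adjusted p = 8.84e-06). Prdx3, the matrix peroxiredoxin, read 11.70, 12.01 and 11.91 with vector and 12.40, 12.30 and 12.47 with PGC-1a1. The groups did not overlap, and the rise was 1.43-fold (0.52 ± 0.09, adjusted p = 0.000474). Txn2, the thioredoxin that keeps Prdx3 reduced, read 11.77, 11.96 and 11.86 with vector and 12.38, 12.37 and 12.51 with PGC-1a1. These arrays did not overlap either (1.47-fold, 0.55 ± 0.07, adjusted p = 3.56e-05). The probe set for Txn2 is of a type whose probes can match other transcripts.

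The other enzymes did not pass in this comparison. Txnrd2, the reductase of Txn2, read 7.93, 8.31 and 7.80 with vector and 7.86, 7.79 and 7.94 with PGC-1a1, and the arrays overlapped (-0.15, 95% interval -0.48 to 0.18). Sod1 gave 9.12, 9.04 and 8.94 against 9.01, 9.19 and 8.98 (0.02, interval -0.27 to 0.32). Cat gave 13.28, 13.24 and 12.95 against 13.44, 13.08 and 13.05 (0.04, interval -0.21 to 0.29). The intervals for Sod1 and Cat end well below the rise of Sod2. Thus 3 of 6 members were called higher and 0 lower, where 7.88% of all genes were called higher and 4.11% lower. The median difference was 0.54 over the 4 mitochondrial enzymes, 0.03 over Sod1 and Cat, and -0.01 over all genes.

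**Figure D1:**
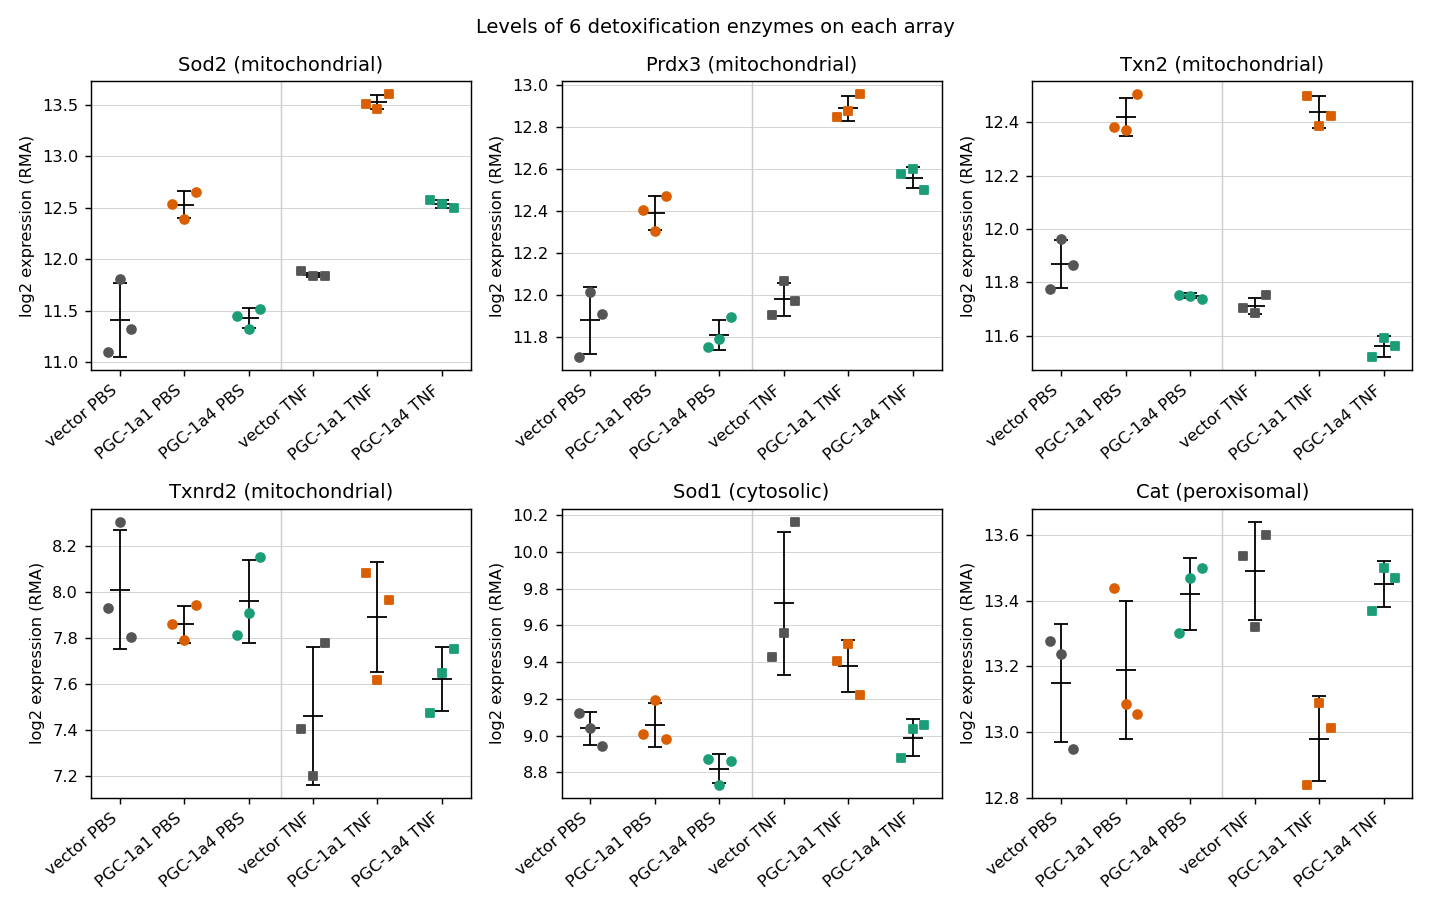
Log2 level (y axis, RMA) of each of the 6 measured enzymes on each of the 18 arrays by group (x axis), circles PBS and squares TNF, with the group mean and SD (n = 3) as bars. Sod2, Prdx3 and Txn2 lie higher on the PGC-1a1 arrays than on the vector arrays of the same treatment, and Sod2 and Prdx3 also on the PGC-1a4 arrays under TNF but not under PBS. The y axes differ between panels and do not start at 0.

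The promoters of the 3 genes that rose together are given below with that of Cat, which did not rise with PGC-1a1 in either treatment. Each line holds the 250 bases before the gene's RefSeq start, 5′ to 3′ on the gene's strand, from assembly GRCm38.p6. Sod2 lies at chr17:13007589-13007838 on the plus strand, Prdx3 at chr19:60874539-60874788, Txn2 at chr15:77928995-77929244 and Cat at chr2:103485154-103485403, these 3 on the minus strand. Capitals mark matches on either strand to the GC box GGGCGG or to a kappaB-like stretch, which is GGGA, any 4 bases and CC.
Sod2: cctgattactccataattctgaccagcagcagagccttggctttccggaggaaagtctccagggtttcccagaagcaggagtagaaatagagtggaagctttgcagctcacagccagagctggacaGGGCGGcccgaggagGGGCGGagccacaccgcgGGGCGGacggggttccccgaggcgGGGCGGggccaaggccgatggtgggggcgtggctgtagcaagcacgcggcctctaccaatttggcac
Prdx3: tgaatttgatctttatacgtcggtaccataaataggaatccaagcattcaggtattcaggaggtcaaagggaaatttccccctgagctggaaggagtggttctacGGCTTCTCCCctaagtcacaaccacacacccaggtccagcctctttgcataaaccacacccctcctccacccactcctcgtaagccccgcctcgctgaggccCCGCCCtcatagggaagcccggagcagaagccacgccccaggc
Txn2: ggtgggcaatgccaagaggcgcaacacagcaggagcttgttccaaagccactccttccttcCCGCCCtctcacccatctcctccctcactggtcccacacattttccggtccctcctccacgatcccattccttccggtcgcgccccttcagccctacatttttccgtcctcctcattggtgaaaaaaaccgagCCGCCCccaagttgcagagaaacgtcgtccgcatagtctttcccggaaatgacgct
Cat: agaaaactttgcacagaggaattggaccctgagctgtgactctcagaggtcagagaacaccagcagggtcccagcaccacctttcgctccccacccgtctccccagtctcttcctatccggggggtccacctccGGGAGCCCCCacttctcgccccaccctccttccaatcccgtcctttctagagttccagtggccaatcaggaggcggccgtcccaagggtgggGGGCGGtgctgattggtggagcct

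The Sod2 window held 4 GC boxes, Txn2 2, and Prdx3 and Cat 1 each. Of the members not printed, Sod1, which did not rise with PGC-1a1, also held 4 and Txnrd2 held 1. The GC content of the 6 windows ran from 55.6% in Prdx3 to 66.4% in Sod1, above the median of 52.4% over all windows. The search for the GC box was added after the data were seen, and 32.7% of 32817 promoter windows of the same length held at least 1. Prdx3 and Cat each held 1 kappaB-like match, as did 17.6% of all windows, and the Sod2 window held none to this pattern. It does hold ggggttcccc, which differs from the pattern only by G in place of A. Near matches were not counted in any window. The letters AAGGTCA, the core bound by estrogen-related receptors, were in none of the 6 members' windows and in 4.08% of all windows. The NRF1 core TGCGCA was also in none of the 6, against 6.42% of all windows. The antioxidant response element TGACNNNGC matched 1 time, in Sod1, and was held by 10.2% of windows. No match overlapped a match to another motif in the printed windows. A match is a description of letters and not a bound site.

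Under TNF, PGC-1a1 was accompanied by higher levels of all 4 measured mitochondrial enzymes, Txnrd2 only narrowly, and a lower level of catalase. Sod2 read 11.88, 11.84 and 11.84 on the vector TNF arrays and 13.51, 13.46 and 13.60 with PGC-1a1, a rise of 3.18-fold (1.67 ± 0.13, limma adjusted p = 7.69e-09). Prdx3 read 11.91, 12.07 and 11.97 against 12.85, 12.88 and 12.96 (1.88-fold, 0.91 ± 0.09, adjusted p = 1.22e-07). Txn2 read 11.70, 11.68 and 11.75 against 12.50, 12.39 and 12.42 (1.65-fold, 0.72 ± 0.07, adjusted p = 2.27e-07). For these 3 genes every PGC-1a1 array was above every vector array.

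Txnrd2 was called narrowly and its arrays overlapped. It read 7.40, 7.20 and 7.78 with vector and 8.08, 7.62 and 7.96 with PGC-1a1 (0.43 ± 0.16, adjusted p = 0.0371). The call was lost without vector TNF replicate 1 (0.40), vector TNF replicate 2 (0.30), PGC-1a1 TNF replicate 1 (0.33) or PGC-1a1 TNF replicate 3 (0.39). It was also lost in 5 of 10 other settings, over which the difference ran from 0.35 to 0.43. The second probe set of Txnrd2 rose by a similar amount (0.40 ± 0.11, adjusted p = 0.00668 over probe sets).

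Cat fell with PGC-1a1 under TNF. It read 13.54, 13.32 and 13.60 with vector and 12.84, 13.09 and 13.01 with PGC-1a1, and the groups did not overlap. The level was 1.42-fold lower (-0.51 ± 0.12, adjusted p = 0.00207), and the second Cat probe set was lower too (-0.67 ± 0.10, adjusted p = 2.46e-05 over probe sets). Sod1 read 9.43, 9.56 and 10.16 with vector and 9.41, 9.50 and 9.22 with PGC-1a1. The vector replicate 3 array stood highest, the groups overlapped, and the difference did not pass (-0.34 ± 0.14, adjusted p = 0.0624). Without vector TNF replicate 3 it was -0.12. It passed without vector TNF replicate 1 (-0.49) or vector TNF replicate 2 (-0.42). In all, 4 of 6 members were called higher and 1 lower, beside 20.8% of all genes higher and 20.5% lower. When all arrays were quantile normalized together, 3 rose and 2 fell, with Sod1 called in place of Txnrd2. Medians were 0.82 over the mitochondrial enzymes, -0.42 over Sod1 and Cat, and -0.03 over all genes.

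PGC-1a4 was not accompanied by a called change in any measured member in cells given PBS. Sod2 read 11.45, 11.32 and 11.52, inside the range of the vector arrays (0.02, 95% interval -0.25 to 0.29). Prdx3 read 11.75, 11.79 and 11.89 (-0.06, interval -0.25 to 0.12), also within the vector range. The upper bounds for both genes lie below the rises seen with PGC-1a1. Txn2 read 11.75, 11.75 and 11.74, just below the vector arrays (-0.12, interval -0.27 to 0.03). Txnrd2 read 7.81, 7.91 and 8.15 and overlapped with vector (-0.05, interval -0.39 to 0.28). Sod1 read 8.87, 8.73 and 8.86, below each vector array (-0.21, interval -0.51 to 0.08). Cat read 13.30, 13.47 and 13.50, above each vector array, without passing (0.27 ± 0.12, limma adjusted p = 0.419). Cat was also the 1 member with an unadjusted p under 0.05, and 1 member, Cat, was called when arrays were weighted by quality (0.37). The count of 0 in limma stands beside 0.0775% of all genes called higher and 0.129% called lower.

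With TNF, PGC-1a4 was accompanied by higher Sod2 and Prdx3 and lower Sod1. Sod2 read 12.58, 12.54 and 12.49, above all 3 vector TNF arrays (1.60-fold, 0.68 ± 0.13, limma adjusted p = 0.000523). Prdx3 read 12.58, 12.60 and 12.50, again above all vector arrays (1.49-fold, 0.58 ± 0.09, adjusted p = 6.58e-05). Both rises kept the call in every setting tried and without any single array.

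Txn2 did not share this rise. It read 11.52, 11.59 and 11.56, below every vector TNF array, and the difference did not pass (-0.15 ± 0.07, adjusted p = 0.11). It passed after quantile normalization over all arrays (-0.22, adjusted p = 0.00704) and after centring each array on its median (-0.24, adjusted p = 0.0106). Txnrd2 read 7.47, 7.65 and 7.75, in the range of the vector arrays (0.16, interval -0.17 to 0.50). Cat read 13.37, 13.50 and 13.47 and overlapped with vector (-0.04, interval -0.29 to 0.21).

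Sod1 read 8.88, 9.03 and 9.06 with PGC-1a4 under TNF, below all vector TNF arrays (1.66-fold lower, -0.73 ± 0.14, adjusted p = 0.000696). Without vector TNF replicate 3, the highest array, the difference was -0.50. It was -0.31 and still called when the 3 Sod1 probe sets were averaged. The other probe sets did not pass on their own (-0.22 and 0.04, adjusted p = 0.212 and 0.84 over probe sets), so the fall rests on the brightest one. In all, 2 members were called higher and 1 lower, against 21.1% and 12.3% of all genes, and quantile normalization or centring gave 2 and 2. The median was 0.37 over the mitochondrial enzymes, -0.38 over Sod1 and Cat, and 0.01 over all genes. The comparisons of PGC-1a1 and of PGC-1a4 with vector share the vector arrays.

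**Figure D2:**
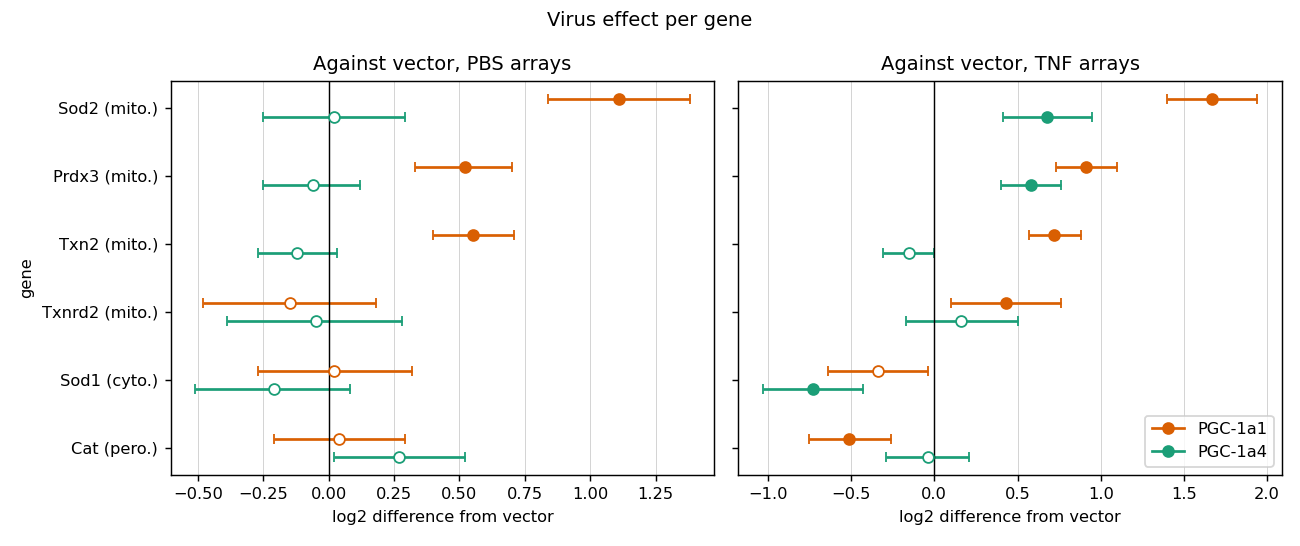
Log2 difference from vector (x axis) with its 95% interval for each enzyme (y axis), orange PGC-1a1 and green PGC-1a4, on PBS arrays (left) and TNF arrays (right), filled points called at an adjusted p under 0.05. On PBS arrays 3 filled points are seen, all PGC-1a1; on TNF arrays PGC-1a1 has 5 and PGC-1a4 has 3. The x axes differ between panels.

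Set directly against each other, the 2 isoforms differed in the same 3 mitochondrial enzymes under both treatments. Under PBS Sod2 in PGC-1a1 cells exceeded that in PGC-1a4 cells 2.14-fold (1.10 ± 0.13, limma adjusted p = 8.78e-06). Prdx3 was 1.50-fold higher (0.58 ± 0.09, adjusted p = 0.000107) and Txn2 1.60-fold higher (0.67 ± 0.07, adjusted p = 3.67e-06). No arrays of the 2 groups overlapped for these genes. The 3 members called higher stand beside 10.3% of all genes, and 0 were called lower beside 7.08%. Txnrd2 (-0.09, interval -0.43 to 0.24), Sod1 (0.24, interval -0.06 to 0.54) and Cat (-0.23, interval -0.48 to 0.02) did not pass. The second Cat probe set, however, was called lower with PGC-1a1 (-0.32 ± 0.10, adjusted p = 0.0375 over probe sets).

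On the TNF arrays Sod2 was 1.99-fold higher with PGC-1a1 (0.99 ± 0.13, adjusted p = 7.37e-06), Prdx3 1.26-fold (0.33 ± 0.09, adjusted p = 0.0051) and Txn2 1.84-fold (0.88 ± 0.07, adjusted p = 3.23e-08). Cat was 1.38-fold lower with PGC-1a1 (-0.47 ± 0.12, adjusted p = 0.00436). Its 3 arrays all lay below the PGC-1a4 arrays. Sod1 was called higher with PGC-1a1 (0.39 ± 0.14, adjusted p = 0.0412), but not as the mean of its probe sets (0.13, adjusted p = 0.381). That call was also lost without PGC-1a1 TNF replicate 1 (0.37), PGC-1a1 TNF replicate 2 (0.32), PGC-1a4 TNF replicate 1 (0.33), PGC-1a4 TNF replicate 2 (0.41) or PGC-1a4 TNF replicate 3 (0.42). Txnrd2 did not pass (0.26, interval -0.07 to 0.60), although its second probe set did (0.44 ± 0.11, adjusted p = 0.00388 over probe sets). The counts were 4 higher and 1 lower, beside 15.2% and 21.3% of all genes.

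Sod2 was measured by 3 probe sets. The second read 10.34, 11.10 and 10.50 with vector and 11.81, 11.55 and 12.02 with PGC-1a1 under PBS (1.15 ± 0.15, adjusted p = 5.62e-05 over probe sets). With TNF it was higher by 1.97 ± 0.15 with PGC-1a1 and by 1.23 ± 0.15 with PGC-1a4 than with vector. These 2 differences are larger than those of the brightest probe set. The dimmest probe set, at 7.24 to 8.18 over the 18 arrays, was higher with PGC-1a1 under TNF (0.77 ± 0.12, adjusted p = 5.02e-05). It did not pass with PGC-1a1 under PBS (0.19 ± 0.12) or with PGC-1a4 under TNF (0.13 ± 0.12).

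**Figure D3:**
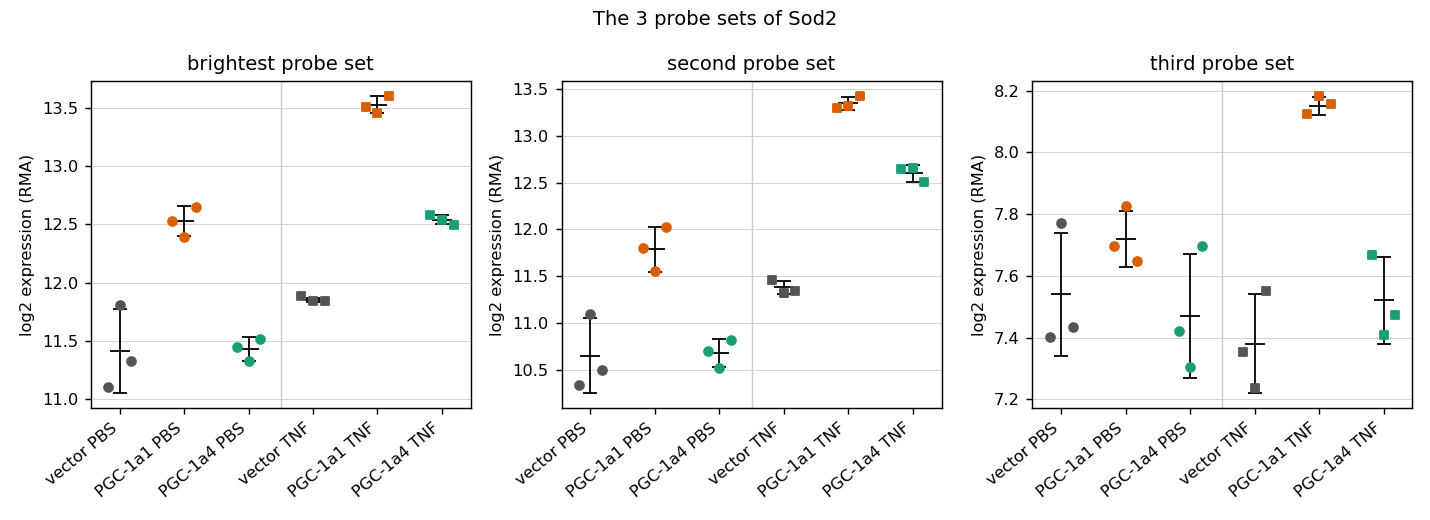
Log2 level (y axis, RMA) on each array by group (x axis) for the 3 probe sets of Sod2, circles PBS and squares TNF, with the group mean and SD (n = 3). The PGC-1a1 TNF arrays are the highest in all 3 panels, and the PGC-1a4 TNF arrays exceed the vector TNF arrays in the first and second panels only. The y axes differ between panels and do not start at 0.

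By group, Sod2 ran from 13.53 ± 0.07 (SD, n = 3) with PGC-1a1 and TNF to 11.41 ± 0.36 with vector and PBS. Next to the top came PGC-1a4 TNF (12.54 ± 0.04) and PGC-1a1 PBS (12.53 ± 0.13), whose arrays overlapped. They were followed by vector TNF (11.85 ± 0.02) and then PGC-1a4 PBS (11.43 ± 0.10), which overlapped with vector PBS. Prdx3 had the same 3 groups at the top, in the order PGC-1a1 TNF (12.89 ± 0.06), PGC-1a4 TNF (12.56 ± 0.05) and PGC-1a1 PBS (12.39 ± 0.08), with no overlap among them. Below these, vector TNF (11.98 ± 0.08), vector PBS (11.88 ± 0.16) and PGC-1a4 PBS (11.81 ± 0.07) were not separated, since vector PBS overlapped with both neighbours. Txn2 split differently, with both PGC-1a1 groups on top at 12.44 ± 0.06 (TNF) and 12.42 ± 0.07 (PBS), which overlapped, and PGC-1a4 TNF lowest at 11.56 ± 0.04.

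The TNF arrays were then compared with the PBS arrays of the same virus. With vector, 3 members were called higher (34.7% of all genes) and 1 lower (36.6%) as deposited. That split turned to 1 higher and 3 lower after quantile normalization over all arrays, for which no share of all genes is given. Sod1 rose 1.61-fold (0.68 ± 0.14, limma adjusted p = 0.000339), and no array overlapped. Its second probe set rose as well (1.21 ± 0.13, adjusted p = 2.02e-07 over probe sets), and its dimmest did not pass (0.10 ± 0.11). Sod2 rose by 0.44 ± 0.13 (adjusted p = 0.00518) as deposited and was not called after that scaling (-0.01, adjusted p = 0.921). It was 0.29 without vector PBS replicate 1. The other Sod2 probe sets gave 0.73 ± 0.15, which was called, and -0.16 ± 0.12, which was not. Cat rose by 0.33 ± 0.12 (adjusted p = 0.0183), a call lost after quantile normalization (0.21) and without vector PBS replicate 3 (0.23), vector TNF replicate 1 (0.31) or vector TNF replicate 3 (0.27). Txnrd2 fell by 0.55 on the log2 scale (adjusted p = 0.00453), while its second probe set gave 0.18 and the mean of both -0.19 (adjusted p = 0.132). Prdx3 did not pass (0.11), was called lower after quantile normalization (-0.34, adjusted p = 0.000266) and higher after centring each array (0.23). Txn2 did not pass (-0.15, adjusted p = 0.0661) and was called lower after quantile normalization (-0.60, adjusted p = 1.05e-07) and without vector PBS replicate 1 (-0.20).

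With PGC-1a1, 2 members rose and 0 fell between PBS and TNF arrays, beside 34.6% and 35.0% of all genes (2 and 2 after quantile normalization, and 3 and 0 after centring, which called Sod1 higher). These were Sod2 (1.00 ± 0.13, adjusted p = 2.16e-06) and Prdx3 (0.50 ± 0.09, adjusted p = 6.11e-05). Both kept their direction and call after quantile normalization (0.71 and 0.17). Txn2 (0.02) turned to a called fall under that scaling (-0.37), and Cat (-0.21, adjusted p = 0.117) was called lower (-0.48). Sod1 did not pass (0.32, adjusted p = 0.0561) but was called as the mean of its probe sets (0.44, adjusted p = 0.00102), and without PGC-1a1 PBS replicate 2 (0.38) or PGC-1a1 TNF replicate 3 (0.39). The second Sod1 probe set rose (0.84 ± 0.13, adjusted p = 1.91e-05 over probe sets). Txnrd2 was at 0.02, while its second probe set was called higher (0.42 ± 0.11, adjusted p = 0.00233 over probe sets).

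With PGC-1a4, Sod2 rose by 1.11 ± 0.13 (adjusted p = 5.61e-07) and Prdx3 by 0.75 ± 0.09 (adjusted p = 5.64e-07), and both kept the call after quantile normalization (0.71 and 0.37). The second Sod2 probe set rose by 1.92 ± 0.15, and the dimmest did not pass (0.04 ± 0.12). Txn2 fell by 0.19 on the log2 scale (adjusted p = 0.028), with no overlap between the arrays. Its call was lost without any of PGC-1a4 PBS replicates 1 (-0.18), 2 (-0.19) and 3 (-0.19) or PGC-1a4 TNF replicates 1 (-0.17) and 3 (-0.19). The counts of 2 higher and 1 lower stand beside 37.4% and 32.8% of all genes. Sod1 (0.17), Cat (0.02) and Txnrd2 (-0.33, adjusted p = 0.0674) did not pass, and the sign of Sod1 and of Cat turned under quantile normalization (-0.17 and -0.09). The second Sod1 probe set did rise (1.13 ± 0.13, adjusted p = 4.95e-07 over probe sets), and the dimmest did not pass (0.23 ± 0.11).

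**Figure D4:**
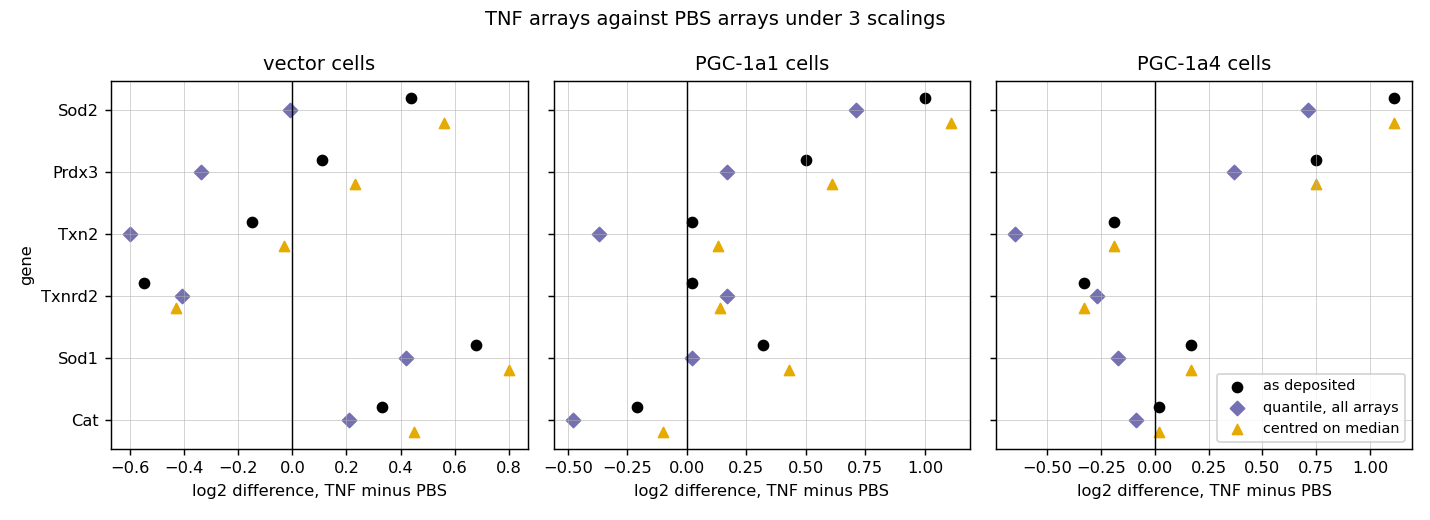
Log2 difference of TNF from PBS arrays (x axis) for each enzyme (y axis) in cells with vector, PGC-1a1 or PGC-1a4, as deposited (black circles), after quantile normalization over all 18 arrays (purple diamonds) and after centring each array on its median (yellow triangles). With vector, Sod2 lies at 0.44 as deposited and at -0.01 after quantile normalization, while with either isoform Sod2 and Prdx3 lie above 0 under all 3 scalings. The x axes differ between panels.

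The difference between viruses in this TNF step was tested as an interaction, which sets the change with PGC-1a1 or PGC-1a4 against the change with vector. Sod2 rose more with PGC-1a1 than with vector (0.56 ± 0.18, limma adjusted p = 0.0311), as did Prdx3 (0.40 ± 0.12, adjusted p = 0.0236). Cat moved the other way (-0.54 ± 0.17, adjusted p = 0.0225). The 2 higher and 1 lower calls stand beside 13.4% and 12.0% of all genes. For Sod2 the call was lost without vector PBS replicate 2 (0.36), PGC-1a1 PBS replicate 1 (0.56), PGC-1a1 PBS replicate 2 (0.49), vector TNF replicate 2 (0.55), vector TNF replicate 3 (0.55) or PGC-1a1 TNF replicate 3 (0.52). For Prdx3 it was lost without vector PBS replicate 2 (0.33), vector PBS replicate 3 (0.38), PGC-1a1 PBS replicate 2 (0.35), vector TNF replicate 1 (0.36) or PGC-1a1 TNF replicate 3 (0.36). For Cat it was lost without vector PBS replicate 3 (-0.44), PGC-1a1 PBS replicate 1 (-0.42), vector TNF replicate 3 (-0.49) or PGC-1a1 TNF replicate 1 (-0.47). The direction held in every one of these fits. The second Sod2 probe set (0.83 ± 0.22, adjusted p = 0.0103 over probe sets) and the dimmest (0.59 ± 0.17, adjusted p = 0.0187) were called as well. So was the second Cat probe set (-0.50 ± 0.14, adjusted p = 0.0138 over probe sets). Txnrd2 did not pass (0.58 ± 0.22, adjusted p = 0.0673), but passed without vector PBS replicate 3 (0.68), vector TNF replicate 3 (0.74) or PGC-1a1 TNF replicate 2 (0.71). Sod1 (-0.37) and Txn2 (0.17) did not pass.

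The PGC-1a4 interaction called Sod2 (0.67 ± 0.18, adjusted p = 0.018) and Prdx3 (0.64 ± 0.12, adjusted p = 0.00177), both higher, beside 11.9% of all genes, and 0 lower beside 4.12%. Neither call was lost without any single array, and the lowest values were 0.47 for Sod2 and 0.57 for Prdx3. The second Sod2 probe set was called too (1.20 ± 0.22, adjusted p = 0.00157 over probe sets). The dimmest did not pass (0.20 ± 0.17, adjusted p = 0.51 over probe sets). Sod1 did not pass (-0.51 ± 0.20, adjusted p = 0.094). It passed without vector TNF replicate 1 (-0.66) and after centring (-0.64), which gave 2 higher and 1 lower. Cat (-0.31, adjusted p = 0.236), Txnrd2 (0.22) and Txn2 (-0.03) did not pass. Both interactions use the same vector arrays.

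Markers of other liver cells moved along with TNF and with the viruses. Of 9 macrophage markers 4 were measured (Cd14, Csf1r, Lyz2 and Cd163), with Cd163 below the lower quartile of all 18 arrays. Their summed linear level was 1660 to 2350 on the PBS arrays, 2970 to 3400 with vector and TNF, 2490 to 2670 with PGC-1a1 and TNF, and 3620 to 3770 with PGC-1a4 and TNF. Cd14, a receptor for bacterial endotoxin, was higher on the PGC-1a4 TNF arrays than on the vector TNF arrays (0.52 ± 0.12, limma adjusted p = 0.00377), while Csf1r (-0.82 ± 0.13) and Lyz2 (-0.67 ± 0.15) were lower. For 5 of 7 sinusoidal endothelial markers the sum was 878 to 944 with vector, 1030 to 1120 with PGC-1a1 and 861 to 920 with PGC-1a4 on PBS arrays, 1990 to 2270 with vector and TNF, 1240 to 1450 with PGC-1a1 and TNF and 1450 to 1490 with PGC-1a4 and TNF. Among them Lyve1, a hyaluronan receptor, was higher with PGC-1a1 under PBS (0.66 ± 0.14, adjusted p = 0.00328) and lower with PGC-1a1 under TNF (-1.03 ± 0.14). Between PBS and TNF arrays with vector, Lyve1 (3.05 ± 0.14), Cdh5 (1.22 ± 0.12) and Stab2 (0.42 ± 0.15) rose. Lyve1 also rose with PGC-1a1 (1.37 ± 0.14) and PGC-1a4 (2.11 ± 0.14). Stab2 rose with PGC-1a1 (0.48 ± 0.15) and did not pass with PGC-1a4 (0.33 ± 0.15). Cdh5 rose with PGC-1a4 (0.54 ± 0.12) and did not pass with PGC-1a1 (-0.10 ± 0.12). Clec4g fell with vector (-0.60 ± 0.15), PGC-1a1 (-0.83 ± 0.15) and PGC-1a4 (-0.45 ± 0.15). Pecam1 fell with PGC-1a1 (-0.64 ± 0.23) and PGC-1a4 (-0.56 ± 0.23) and did not pass with vector. The sum over 7 of 8 stellate and fibroblast markers was 2000 to 2830 on PBS arrays, 1830 to 2210 with vector and TNF and 1290 to 1370 with either isoform and TNF. Between PBS and TNF arrays with vector, Acta2 (-0.87 ± 0.10) and Lrat (-0.37 ± 0.16) fell, while Col3a1 (0.81 ± 0.11) and Pdgfrb (0.73 ± 0.13) rose. The sum over 4 of 5 cholangiocyte markers was 1800 to 2230 on PBS arrays, 604 to 671 with PGC-1a1 and TNF and 969 to 1210 in the other TNF groups. Epcam, the brightest of them on PBS arrays, fell between PBS and TNF arrays with vector (-2.61 ± 0.10), PGC-1a1 (-2.25 ± 0.10) and PGC-1a4 (-2.50 ± 0.10). Krt19 (0.61 ± 0.15) and Sox9 (0.47 ± 0.12) rose with vector, and Krt19 rose with PGC-1a4 (0.80 ± 0.15). Sox9 fell with PGC-1a1 (-1.15 ± 0.12), and Krt7 did not pass with any virus. Among 4 of 6 markers of other leukocytes, summing to 377 to 779 on all arrays, 3 stayed below the lower quartile on every array. The hepatocyte markers Apoa1 (-0.55 ± 0.09, adjusted p = 0.000395) and Hnf4a (-0.33 ± 0.10, adjusted p = 0.0481) were lower with PGC-1a1 than with vector under PBS, where Sod2, Prdx3 and Txn2 were higher. Between PBS and TNF arrays Apoa1 did not pass with vector (0.17) and rose with PGC-1a1 (0.85 ± 0.09, adjusted p = 2.06e-07) and PGC-1a4 (0.40 ± 0.09). Hnf4a read 11.72 to 11.84 on the vector PBS arrays and fell to 8.75 to 9.20 on the vector TNF arrays, against 11.21 to 11.27 with PGC-1a1 and 10.62 to 10.75 with PGC-1a4 under TNF. The part of these cells in the results for Sod2, Prdx3 and the other enzymes was not tested.

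Other enzymes that handle peroxides and oxidised thiols changed in both directions. The counts of this and the next lists stand beside 7.88% of all genes higher and 4.11% lower with PGC-1a1 under PBS, and 20.8% and 20.5% under TNF. With PGC-1a4 they stand beside 0.0775% and 0.129% under PBS, and 21.1% and 12.3% under TNF. Of 26 peroxide and thiol enzymes listed 21 were measured, and with PGC-1a1 under PBS 3 were called higher and 4 lower (median -0.01). Glrx, a cytosolic glutaredoxin that removes glutathione from proteins, rose by 1.03 ± 0.11 (limma adjusted p = 3.21e-06). Glrx5, a mitochondrial glutaredoxin of iron-sulfur assembly, rose by 0.50 ± 0.08, and Msrb2, a mitochondrial methionine sulfoxide reductase, by 0.57 ± 0.10. Gpx7, a glutathione peroxidase of the endoplasmic reticulum, fell by 0.41 on the log2 scale. Under TNF 8 were higher and 9 lower with PGC-1a1 (median -0.15). Msrb2 was 2.22 ± 0.10 higher than with vector, and Txnrd1, the cytosolic thioredoxin reductase, was lower (-0.84 ± 0.08). With PGC-1a4 the list had 1 lower call under PBS (median 0.00), and 8 higher and 3 lower under TNF (median 0.18). The cytosolic peroxiredoxin Prdx2 was among the higher ones, at 11.56 ± 0.05 with vector and 12.38 ± 0.07 (SD, n = 3) with PGC-1a4 (0.83 ± 0.08, adjusted p = 9.81e-07).

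Enzymes that make glutathione and NADPH supply the reducing power behind peroxide removal, and 12 of 14 listed were measured. With PGC-1a1 under PBS 1 was called, Pgd of the pentose phosphate pathway, which fell by 0.32 on the log2 scale (adjusted p = 0.00289, list median -0.04). Quantile normalization over all arrays called 4 lower there. Under TNF 2 were higher and 5 lower with PGC-1a1 (median -0.12). Among the lower were the pentose phosphate enzymes Taldo1 (-1.09 ± 0.07) and Tkt (-0.83 ± 0.07) and Gclm, the modifier subunit of glutamate-cysteine ligase (-1.27 ± 0.09, adjusted p = 2.09e-09). With PGC-1a4 the list gave 1 lower call under PBS (median 0.01) and 4 higher with 1 lower under TNF (median 0.11), the lower being Tkt (-0.65 ± 0.07). Centring each array on its median left 1 higher and 3 lower there, so the balance of that list under PGC-1a4 and TNF turns with the scaling.

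Regulators of antioxidant genes included partners of PGC-1alpha. Of 17 listed 13 were measured, and PGC-1a1 under PBS came with 4 higher and 1 lower (median -0.02), or 4 and 2 after quantile normalization. Sirt3, a mitochondrial deacetylase that acts on SOD2, rose from 8.83 ± 0.17 to 9.73 ± 0.12 (0.89 ± 0.10, limma adjusted p = 1.06e-05). Esrra, the estrogen-related receptor alpha, rose by 0.97 ± 0.12, and Tfam, which maintains mitochondrial DNA, by 0.73 ± 0.09. Nfe2l2, which encodes the antioxidant transcription factor NRF2, fell by 0.37 on the log2 scale (adjusted p = 0.00184). Under TNF 4 were higher and 5 lower with PGC-1a1 (median -0.19), with Sirt3 at 7.38 ± 0.09 with vector and 10.22 ± 0.07 with PGC-1a1 (2.84 ± 0.10, adjusted p = 8.34e-13). With PGC-1a4 the list had 0 calls under PBS (median 0.04) and 6 higher and 3 lower under TNF (median 0.12), or 4 and 4 after quantile normalization, with Sirt3 again among the higher (1.20 ± 0.10).

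Among the 6 members, levels on the 18 arrays were compared after the mean of each treatment was subtracted. Sod2 and Prdx3 were the closest pair (Pearson r = 0.97), followed by Sod2 and Txn2 (0.88) and Prdx3 and Txn2 (0.77). Cat ran opposite to Txn2 (-0.70) and to Sod2 (-0.62). Sod1 showed little relation to Sod2 (-0.16). Of all named genes, the 5 most like Sod2 were Tor1b (0.982), Cox6c (0.982), Cox11 (0.981), Rabl3 (0.980) and Rdh13 (0.979). Cox6c is a subunit of cytochrome c oxidase and Cox11 an assembly factor of the same complex. The 5 most like Prdx3 were Epn1 (0.988), Tor1b (0.976), Fau (0.972), Rrm1 (0.970) and Mcrs1 (0.968). For Cat the highest values were lower, with Serinc3 (0.877), Serinc5 (0.859), Spin1 (0.848), Chsy3 (0.837) and Socs5 (0.835). These are descriptions over arrays that share their groups, and no p is given.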

How the data were processed

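Biotin-labelled cRNA from the 18 samples was hybridised to Affymetrix arrays, per the labels. The authors deposited log2 values. The submitters' processing notes name RMA and affy, without versions. Whether all arrays were normalized in 1 run is not known. The value table was held in part, and its last, incomplete row of 33246 was dropped. Of 33245 probe sets, 25951 named 1 gene in the platform annotation, 686 several and 6608 none here. Of those naming 1 gene, 25803 were matched by gene identifier and took their symbol from RefSeq (GRCm38.p6). The brightest probe set by mean stood for each of 15491 genes, of which 6488 had several.

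A model with a mean for each group was fitted over the 18 arrays in limma 3.58.1 (R 4.3.3), leaving 12 residual and adding 5.08 prior degrees of freedom, and was tested on simulated data. Of 11 contrasts, 9 set 2 groups against each other and 2 were interactions. Tests were two-sided, with Benjamini-Hochberg adjustment within a contrast and a threshold of 0.05. The number of arrays limits the precision. Alternatives changed the moderation, array weights, the replicate block, the arrays fitted, the scaling (quantile or median centring), the floor on dim genes, the choice of probe sets and the threshold (0.01), and left out single arrays. All members were named, with at most the 4 genes of smallest p per list and contrast and the 5 genes most like Sod2, Prdx3 and Cat. Members and lists were chosen with earlier results of these data known. Promoters came from RefSeq. Figures were drawn with matplotlib 3.10.9 (Python 3.11.15).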

Additional observations from a re-analysis of the deposited data

Results flagged for a closer look

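The TNF step differed between viruses for 3 enzymes by the interaction test of limma. Sod2 rose more with PGC-1a1 than with vector (0.56, adjusted p = 0.0311) and more with PGC-1a4 than with vector (0.67, adjusted p = 0.018). Prdx3 did so with PGC-1a1 (0.40, adjusted p = 0.0236) and with PGC-1a4 (0.64, adjusted p = 0.00177). Cat differed in the opposite direction with PGC-1a1 (-0.54, adjusted p = 0.0225). The 3 PGC-1a1 values passed neither at an adjusted p of 0.01 nor without certain single arrays, whose values stand with the comparison above. All 5 tests share the vector arrays. On its dimmest probe set Sod2 did not pass in the PGC-1a4 interaction (0.20, adjusted p = 0.51 over probe sets). It did pass there in the PGC-1a1 interaction (0.59, adjusted p = 0.0187 over probe sets).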

How the results depend on the processing

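Of 66 member results, 33 were called, and 23 of these kept the call under every setting and without any single array, while 10 lost it under at least 1 and 13 others passed under at least 1. Among values called as deposited or after rescaling, the sign turned for Sod2 (-0.01) and Prdx3 (-0.34) in vector cells and Txn2 (-0.37) in PGC-1a1 cells, each in TNF against PBS after quantile normalization over all arrays. That scaling also gave 4 called members in place of 2 in PGC-1a1 cells for TNF against PBS. It moved the mitochondrial median to 0.41 from 0.54 in PGC-1a1 against vector under PBS, to -0.38 from -0.02 with vector and to 0.05 from 0.28 with PGC-1a4 in TNF against PBS. Centring each array on its median gave 0.10 with vector and 0.37 (from 0.26) with PGC-1a1 in TNF against PBS, and 0.31 (from 0.43) in the PGC-1a4 interaction. The cause of these moves was not tested. Array weights called 1 member in place of 0 in PGC-1a4 against vector under PBS. In the PGC-1a1 interaction 0 members in place of 3 passed an adjusted p of 0.01, 1 passed when only the arrays compared were fitted, and 1 to 4 when single arrays were left out, with 1 without vector PBS replicate 2, PGC-1a1 PBS replicate 1, PGC-1a1 PBS replicate 2 or PGC-1a1 TNF replicate 3. In the PGC-1a4 interaction 1 in place of 2 passed an adjusted p of 0.01. The filter on dim genes left Txnrd2 out, and dropping Prdx5, Gpx1 and Gpx4 from the compartment medians changed nothing, since none of them has a value here.

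Replicate numbers did not pair the arrays: deviations of same-numbered arrays correlated at -0.143 to 0.186 over 45 pairs (5 above 0.1), and 8 of 18 arrays deviated most like one of their own number. With a replicate block 1 member call was lost, Sod1 in PGC-1a1 against PGC-1a4 under TNF (0.39, adjusted p = 0.053), and the other member calls and non-calls kept their side of the threshold.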

Other observations

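Genes that limit electron leak were counted as well, of which 7 of 8 listed were measured. With PGC-1a1 under PBS 5 were called higher and 0 lower (median 0.70, against -0.01 over all genes), beside 7.88% and 4.11% of all genes. Cycs, the electron carrier cytochrome c, rose from 12.98 ± 0.10 (SD, n = 3) to 14.38 ± 0.10 (1.39 ± 0.08 SE, limma adjusted p = 1.92e-09). The adenine nucleotide carriers Slc25a5 (0.74 ± 0.07) and Slc25a4 (0.75 ± 0.14) and the flavoprotein Aifm1 (0.70 ± 0.09) rose too. Under TNF 3 were higher and 2 lower with PGC-1a1 (median 0.03), beside 20.8% and 20.5% of all genes, and 1 was higher and 3 lower with PGC-1a4 (median -0.08), beside 21.1% and 12.3%. The higher one with PGC-1a4 was Slc25a4 (1.08 ± 0.14).

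Enzymes that make superoxide or peroxide were measured for 12 of 16 listed. With PGC-1a1 under PBS 2 were lower and 0 higher (median -0.13), beside 4.11% of all genes lower and 7.88% higher. The lower ones were Maoa, a monoamine oxidase of the outer mitochondrial membrane (-0.64 ± 0.08, limma adjusted p = 3.22e-05), and Acox2, a peroxisomal oxidase (-0.28 ± 0.09). Maob, a relative of Maoa, read 7.66 ± 0.14 (SD, n = 3) with vector under TNF, 9.37 ± 0.42 with PGC-1a1 and 10.07 ± 0.35 with PGC-1a4. Both isoforms were thus above vector under TNF (1.71 ± 0.18 and 2.42 ± 0.18). On PBS arrays the Maob means were 10.80, 10.58 and 10.96 in the same order, and neither isoform was called against vector. Between PBS and TNF arrays Maob fell with vector (-3.14 ± 0.18), PGC-1a1 (-1.21 ± 0.18) and PGC-1a4 (-0.89 ± 0.18). Hao1, a peroxisomal glycolate oxidase that makes hydrogen peroxide, was lower with PGC-1a1 under TNF (-1.12 ± 0.11, adjusted p = 1.63e-07). In that comparison 2 of the list were higher and 6 lower (median -0.21), beside 20.8% and 20.5% of all genes. With PGC-1a4 under PBS 0 were higher and 0 lower (median 0.01), beside 0.0775% and 0.129% of all genes. Under TNF 1 was higher and 1 lower with PGC-1a4 (median -0.03), beside 21.1% and 12.3%.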
